A study of Arabidopsis thaliana with 6 samples.

Results

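The expansin superfamily of Arabidopsis thaliana was described here as 36 genes, taken by their locus codes from the 33602 gene models counted in every library. It comprises 26 alpha-expansins (EXPA), 6 beta-expansins (EXPB), 3 expansin-like A genes (EXLA) and 1 expansin-like B gene (EXLB). Polyadenylated RNA of whole seedlings was sequenced in 6 libraries, which the series' design text calls biological replicates. All seedlings carried 35S::CUC2-GR, in which the viral 35S promoter drives the organ-boundary transcription factor CUC2, fused to the part of the glucocorticoid receptor (GR) that binds dexamethasone. The 3 Dex libraries came from seedlings kept for 6 h in 10 mL of liquid medium to which 10 µL of dexamethasone had been added. The 3 no_Dex libraries came from seedlings of the same genotype whose labels give no treatment. Both groups were at Boyes stage 1.02, a seedling stage, and were grown in vitro at 21 °C under the light regime labelled LD. The concentration of dexamethasone and the number of seedlings or transgenic lines per library are not stated in the sources used here. With no mock-treated seedlings and no line without the transgene among the groups, effects of the fusion protein, of dexamethasone itself and of handling cannot be told apart.

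Expansins are small secreted proteins that loosen plant cell walls without cutting the wall polymers, and they act best at acidic pH. A growing cell acidifies its wall through plasma membrane proton pumps, and expansins let cellulose and its partner polysaccharides slip past each other under turgor. Alpha-expansins carry most of the wall-loosening activity studied in dicots, and beta-expansins include the pollen allergens of grasses. The expansin-like proteins share the same fold, but no wall-loosening activity has been established for them.

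Between 26161582 and 29046312 read pairs were counted in the Dex libraries and between 28378873 and 29481253 in the no_Dex libraries. Levels are given as FPKM, read pairs scaled by the length of the gene model and by the counted pairs of the library, so that genes of different length can be compared. Changes are log2 fold changes of Dex over no_Dex, each with its standard error (SE). A gene was called at an adjusted p under 0.05 in edgeR's quasi-likelihood test over all 21344 genes tested. Across genes, log2 levels of Dex replicate 1 correlated less well with the other Dex libraries (0.987 to 0.988) than these did with each other (0.994). Expansin calls that changed without that library are given both ways. CUC2, whose count sums the transgene and the endogenous gene, had 758, 757 and 736 FPKM in Dex and 763, 717 and 723 FPKM in no_Dex. Its log2 fold change was 0.02 (SE 0.06, adjusted p = 0.876). The treatment acts on the location of the fusion protein, so this level does not check it.

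In the Dex libraries 11 expansin genes fell and none rose. The 11 are EXPA3, EXPA5, EXPA6, EXPA7, EXPA8, EXPA10, EXPA11, EXPB1, EXLA1, EXLA2 and EXLA3. They were 44% of the 25 members that had enough reads to be tested, and over all tested genes 8.4% were called lower and 5.99% higher, or 14.4% in either direction. The other 14 tested members were not called at an adjusted p under 0.05. At an unadjusted p under 0.05 in edgeR, 2 members were higher and 14 lower. DESeq2's Wald test called 0 members higher and 11 lower, and limma-voom 0 higher and 10 lower. The median log2 fold change of the 25 was -0.28, against 0.01 over all tested genes, and 19 of the 25 lay below 0. All 3 Dex libraries lay below all 3 no_Dex libraries in 13 members (16.9% of all tested genes did so) and above them in 2, EXPA9 and EXPA12 (19.8% of all tested genes). The number of members called lower was 6 without no_Dex replicate 2, 6 without no_Dex replicate 3 and 13 without Dex replicate 1.

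**Figure D1:**
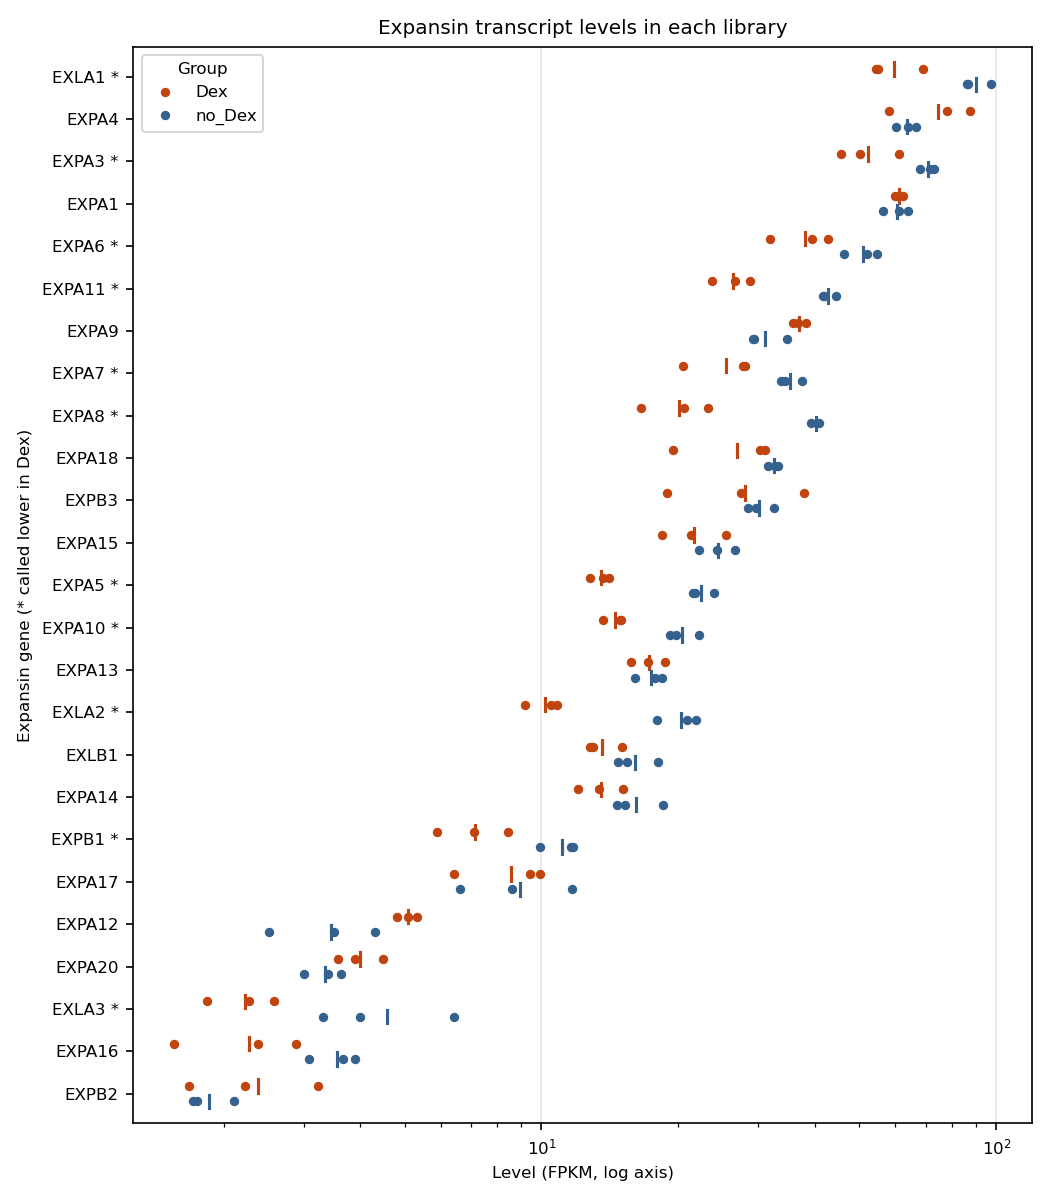
Level of each of the 25 tested expansin genes (FPKM, log axis) in the 3 Dex and the 3 no_Dex libraries, ordered by the mean over all libraries; points are libraries, short lines are group means, and asterisks mark the 11 genes called lower. The points of the 2 groups are apart in all 11 marked genes, and the levels span from 1.56 FPKM (EXPA16 in Dex replicate 1) to 97.4 FPKM (EXLA1 in no_Dex replicate 2).

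**Figure D2:**
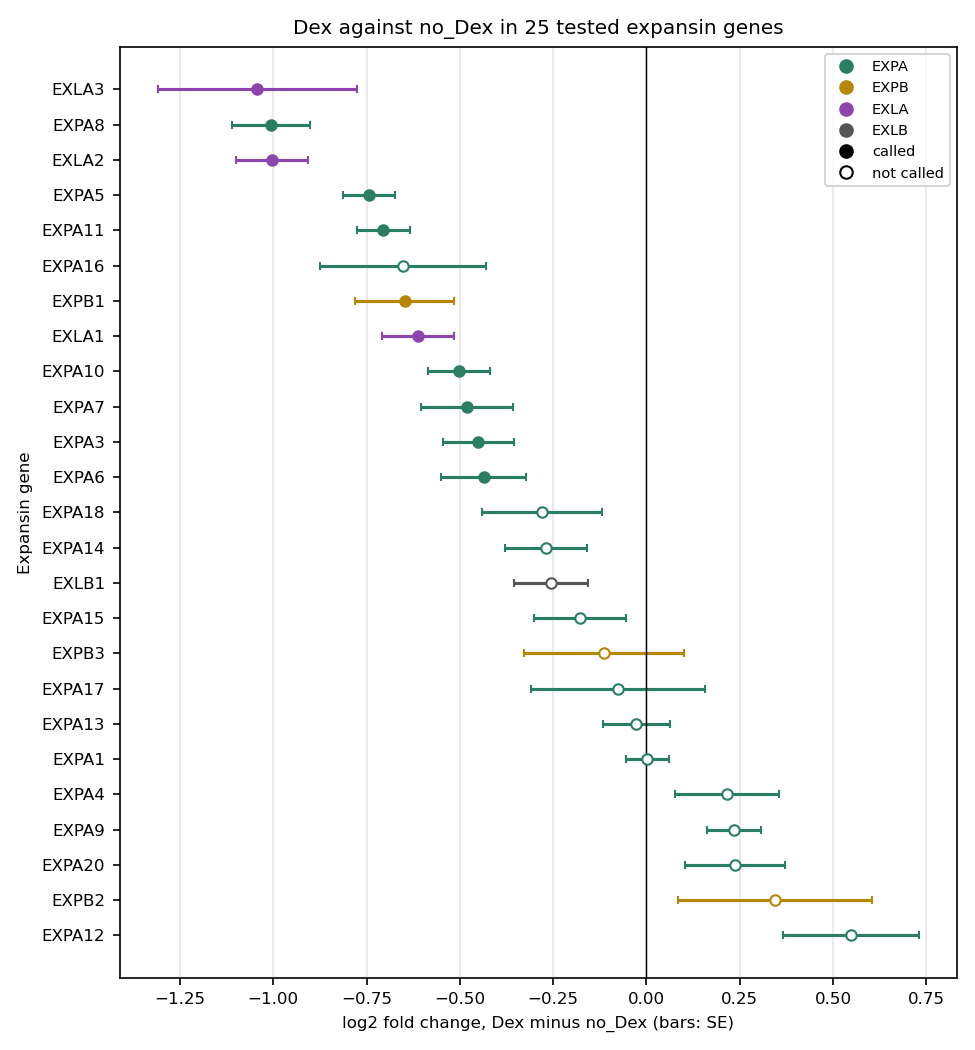
Log2 fold change, Dex minus no_Dex, with its SE, for the 25 tested expansins, coloured by subfamily; filled points were called and open points were not. All 11 filled points lie left of 0, between -1.04 (EXLA3) and -0.44 (EXPA6), and the right side holds open points only.

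Summed over the family, expansin transcripts amounted to 562, 578 and 614 FPKM in Dex and to 698, 740 and 727 FPKM in no_Dex. The means were 585 ± 26.7 FPKM in Dex and 721 ± 21.3 FPKM in no_Dex (SD, n = 3 each), a difference of -18.9%, and the groups did not overlap. In bulk seedlings, fewer cells that express a gene and less RNA of it per cell cannot be told apart. The alpha-expansins made up most of the sum, with 438, 461 and 486 FPKM in Dex and 530, 554 and 558 FPKM in no_Dex (-15.6%). The 3 EXLA genes summed to 81.4, 65.9 and 68.4 FPKM in Dex and to 108, 125 and 112 FPKM in no_Dex (-37.4%). In both of these subfamilies every Dex library lay below every no_Dex library. Beta-expansins summed to 27.7, 38.2 and 46.8 FPKM in Dex and to 44.4, 43.0 and 41.8 FPKM in no_Dex, so that these groups overlapped, with Dex replicate 1 lowest and Dex replicate 3 highest of all 6 libraries. Sums over members are a description of the family and were not tested.

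**Figure D3:**
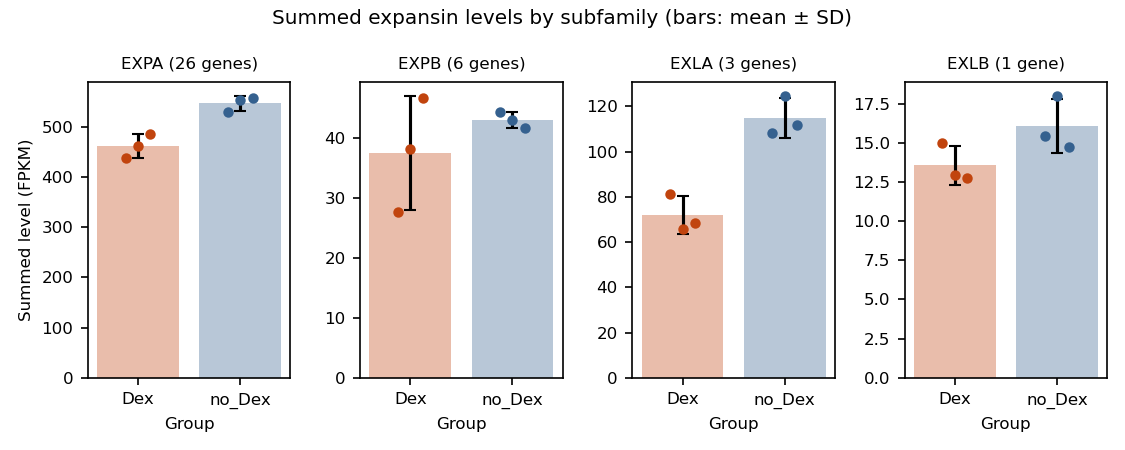
Summed level (FPKM) of each expansin subfamily in Dex and no_Dex seedlings; bars are means of 3 libraries with SD, and points are libraries. The Dex points lie below the no_Dex points for EXPA and EXLA and overlap them for EXPB and EXLB.

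The order of the genes by level was not the same in both groups. In Dex seedlings EXPA4 stood first with 74.4 ± 14.96 FPKM, followed by EXPA1 (61.0 ± 1.33 FPKM), EXLA1 (59.5 ± 8.33 FPKM) and EXPA3 (52.2 ± 8.03 FPKM), with n = 3 each. The ranges of neighbours in that order overlapped, although EXPA1 and EXLA1 each lay above EXPA3 within every Dex library. In no_Dex seedlings EXLA1 stood first with 90.1 ± 6.36 FPKM, then EXPA3 with 70.7 ± 2.56 FPKM, EXPA4 with 63.6 ± 3.33 FPKM and EXPA1 with 60.4 ± 3.83 FPKM. There the ranges of EXLA1, EXPA3 and EXPA4 did not overlap, and those of EXPA4 and EXPA1 did.

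EXPA8 (AT2G40610) showed the largest decrease among the alpha-expansins. It lies at chr2:16948791-16950705 on the minus strand (TAIR10.1, as all positions here) and is an alpha-expansin with 3 exons. It had 23.2, 16.6 and 20.5 FPKM in Dex and 39.1, 40.7 and 40.3 FPKM in no_Dex. The no_Dex libraries lay close together and every Dex library lay far below them. Its fitted level was 2.01-fold lower in Dex, a log2 change of -1.01 (SE 0.11, adjusted p = 0.00101). The call held in all 15 alternative analyses.

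EXPA5 (AT3G29030), which is known for a role in growth that depends on brassinosteroid hormones, lies at chr3:11011262-11013451 on the minus strand. It had 14.1, 13.6 and 12.8 FPKM in Dex and 21.5, 23.9 and 21.8 FPKM in no_Dex. The 3 Dex values spanned less than the gap to the lowest no_Dex library. On the log2 scale it changed by -0.74 (SE 0.07, adjusted p = 0.000655), the smallest adjusted p of the family.

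EXPA11 (AT1G20190), at chr1:6998335-6999839 on the minus strand, had 28.7, 23.8 and 26.7 FPKM in Dex and 41.8, 41.7 and 44.5 FPKM in no_Dex. The groups were well apart, and the log2 fold change was -0.71 (SE 0.07, adjusted p = 0.000927). EXPA10 (AT1G26770), which promotes the growth of leaves and petioles and lies at chr1:9259432-9261313 on the plus strand, had 13.6, 14.96 and 14.9 FPKM in Dex and 19.8, 19.1 and 22.2 FPKM in no_Dex. Again no Dex library reached the no_Dex range. Its log2 fold change was -0.50 (SE 0.08, adjusted p = 0.00687). EXPA5, EXPA10 and EXPA11, like EXPA8, were called in each of the 15 alternatives.

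In the main edgeR fit, EXPA3, EXPA6 and EXPA7 fell by less relative to their spread. EXPA3 (AT2G37640, chr2:15787523-15790139, minus strand), one of the most abundant members, had 61.1, 45.5 and 50.1 FPKM in Dex and 67.9, 71.5 and 72.8 FPKM in no_Dex. Dex replicate 1 lay nearest to the no_Dex libraries, and the groups did not overlap. EXPA3 changed by -0.45 on the log2 scale (SE 0.10, adjusted p = 0.0189), and -0.57 (adjusted p = 0.000150) without Dex replicate 1. Leaving out any no_Dex library, or Dex replicate 3, ended the call (adjusted p between 0.0523 and 0.0780).

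EXPA6 (AT2G28950, chr2:12431338-12433796, minus strand) had 31.9, 39.3 and 42.6 FPKM in Dex and 46.2, 54.6 and 51.9 FPKM in no_Dex. The groups were apart by the gap between Dex replicate 3 and no_Dex replicate 1. Its log2 fold change was -0.44 (SE 0.11, adjusted p = 0.0394). The call ended when any no_Dex library or Dex replicate 2 was left out (adjusted p between 0.0629 and 0.147), and with offsets for gene length and GC content (0.0635). With the replicate numbers as a block in edgeR, the SE was 0.07 and EXPA6 was called (adjusted p = 0.00703). The block together with those offsets also called it (0.0132).

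EXPA7 and EXPA18 are a pair of alpha-expansins known from root hairs, the tubular outgrowths of the root epidermis. Both carry a root hair element (RHE), the motif bound by bHLH factors of the RHD6 and RSL type, in the 250 bases before the annotated gene start. They were the only members with a match among 35 searched, and 0.754% of 27443 promoters of the same length hold one on either strand. The promoters are shown 5′ to 3′ on the strand of the gene, from the RefSeq TAIR10.1 genome, with the RHE in capitals. They lie at chr1:4276255-4276504 (EXPA7, plus strand) and chr1:23331313-23331562 (EXPA18, plus strand).
EXPA7: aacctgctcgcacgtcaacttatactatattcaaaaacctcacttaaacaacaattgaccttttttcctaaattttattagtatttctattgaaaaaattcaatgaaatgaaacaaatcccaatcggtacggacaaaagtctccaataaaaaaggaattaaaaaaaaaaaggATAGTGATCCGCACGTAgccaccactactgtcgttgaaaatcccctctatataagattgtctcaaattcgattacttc
EXPA18: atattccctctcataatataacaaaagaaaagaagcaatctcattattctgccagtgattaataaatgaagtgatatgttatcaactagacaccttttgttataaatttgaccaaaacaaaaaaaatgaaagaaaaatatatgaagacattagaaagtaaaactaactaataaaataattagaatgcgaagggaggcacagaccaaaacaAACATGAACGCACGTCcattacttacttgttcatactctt
The match spans bases 78 to 62 before the start in EXPA7 and bases 40 to 25 in EXPA18. A CGTGCG match on the minus strand, read as its reverse complement inside the RHE, overlaps it in both promoters.

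EXPA7 (AT1G12560, chr1:4276505-4277969, plus strand) had 20.5, 28.0 and 27.7 FPKM in Dex and 37.5, 33.6 and 34.3 FPKM in no_Dex. Dex replicate 1 was lowest, and the groups did not overlap. EXPA7 changed by -0.48 on the log2 scale (SE 0.12, adjusted p = 0.0362). Without Dex replicate 1 it was -0.34 and stayed called (adjusted p = 0.00546), whereas leaving out any no_Dex library or Dex replicate 2 ended the call (adjusted p between 0.0506 and 0.124).

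EXPA18 (AT1G62980, chr1:23331563-23333246, plus strand) had 19.4, 30.3 and 31.0 FPKM in Dex and 33.2, 31.5 and 32.6 FPKM in no_Dex. Dex replicates 2 and 3 lay just below the lowest no_Dex library and Dex replicate 1 far below it. The log2 fold change of -0.28 (SE 0.16) was not called (adjusted p = 0.287), and no alternative called it. Without Dex replicate 1 it was -0.08, so most of this value came from that library. The coding sequences of EXPA7 and EXPA18 match at 71.6% of aligned positions and share no run longer than 21 bases, so their reads can be told apart. EXPA7 overlaps AT1G12570 on the opposite strand in the annotation, and the libraries were not stranded, although no stretch of 50 bases of its transcript was shared with another locus. AT1G12570 had a log2 fold change of -0.59 (adjusted p = 0.0768).

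A list of other root hair genes was counted in the same libraries. Of 19 such genes, all of them tested, 6 fell, 0 rose and 13 were not called in edgeR. The 6 were 31.6% of the list, and over all tested genes 8.4% were called lower and 5.99% higher. The list was chosen with earlier results of these data known, so this share only describes the genes listed. The median log2 fold change of the list was -0.44, against 0.01 over all tested genes, and all 19 lay below 0. The list mixes genes that promote root hairs with genes that limit them. Among the latter are GL2 (-0.22), WER (-0.17) and SCN1 (-0.07), none of them called, so its median is not that of hair-promoting genes alone. At an unadjusted p under 0.05, 0 were higher and 11 lower, and DESeq2 and limma-voom each called 0 higher and 7 lower. The replicate block called 7 lower, and leaving out Dex replicate 1 gave 8 lower, with 0 higher in both. RHD2, the NADPH oxidase of root hair tips, had 8.79, 8.02 and 7.57 FPKM in Dex and 11.3, 11.6 and 11.7 FPKM in no_Dex (log2 fold change -0.51, SE 0.06, adjusted p = 0.00186). LRX2, a wall protein of root hairs, changed by -0.94 (SE 0.11, adjusted p = 0.00157). RSL4 and RSL2, bHLH activators of root hair growth, changed by -0.59 (SE 0.09, adjusted p = 0.00438) and by -0.69 (SE 0.11, adjusted p = 0.00566). These 4 stayed called in every alternative.

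Among the 5 root hair markers COBL9, PRP3, PRP1, LRX1 and MRH6, which are part of that list, 0 were called in edgeR, and their log2 fold changes ran from -0.51 to -0.28. At an unadjusted p under 0.05, 3 were lower, and DESeq2 and limma-voom each called 1 lower, COBL9, which was also called with the replicate block (adjusted p = 0.0320). Without Dex replicate 1, COBL9 was at -0.31 (adjusted p = 0.0305) and MRH6 at -0.25 (0.0316), both called, and PRP1 was called without Dex replicate 3 (0.0195). PRP3, a root hair wall protein, had 41.4, 72.8 and 86.1 FPKM in Dex and 89.4, 71.7 and 81.0 FPKM in no_Dex, with Dex replicate 1 lowest as in EXPA7 and EXPA18, and its log2 fold change of -0.28 became -0.02 without that library. The 5 markers summed to between 81.0 and 150.4 FPKM in Dex and between 137 and 169 FPKM in no_Dex, and 0 of them were at 0 in any library. The part of these markers in the change of EXPA7 was not tested.

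Promoter stretches of the other called members differed in the motifs they hold. The auxin response element core TGTCTC was present in 4 of the 35 members searched, and 10.9% of all promoters of this length hold it on either strand. It was in 4 of the 11 members called lower (EXPA5, EXPA6, EXPA7 and EXPA10) and in 0 of the 14 tested members not called. It was 1 of 13 motifs searched, on both strands, and the difference was not tested. Another auxin-type site, TGTCGG, is in 4.16% of promoters and was in EXPA12 and EXPB3. The brassinosteroid response elements are CGTGTG, in 5.37% of promoters and in EXPA1, EXPA2, EXPA6 and EXLA2, and CGTGCG, in 1.57% of promoters and in EXPA7, EXPA18 and EXPB3. The G-box CACGTG is in 6.49% of promoters and was found in EXPB2 alone of the members. Its inner part ACGTG is in 22.9% of promoters and 9 members, and the core CACG in 45.6% of promoters and 16 members. Both overlap the G-box and the brassinosteroid elements. ACGTG was in 5 of the 11 called lower and 3 of the 14 not called, and CACG in 5 and 8. The core patterns of NAC factor sites are TTNCGTA, in 9.73% of promoters, and TTNCGTG, in 7.42%. The TCP factor pattern GGNCCC is in 7.35% of promoters and 7 members, with 0 of the 11 called lower and 4 of the 14 not called. The TATA patterns TATAAA, in 47.3% of promoters, and TATATAA, in 20.4%, were in 20 and 14 members.

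Stretches of 4 called members are shown, with the matches named here in capitals. EXPA5 holds TGTCTC in 2 places and EXPA10 in 1, and EXPA10 also holds TTTCGTA, a match to the pattern TTNCGTA. EXLA2 is shown for its match to the brassinosteroid response element CGTGTG. EXPA8, the alpha-expansin with the largest decrease, is shown because it held none of the 13 motifs, so no letter of it is a capital. The stretches lie at chr3:11013452-11013701 (EXPA5, minus strand), chr1:9259182-9259431 (EXPA10, plus strand), chr4:17979741-17979990 (EXLA2, minus strand) and chr2:16950706-16950955 (EXPA8, minus strand).
EXPA5: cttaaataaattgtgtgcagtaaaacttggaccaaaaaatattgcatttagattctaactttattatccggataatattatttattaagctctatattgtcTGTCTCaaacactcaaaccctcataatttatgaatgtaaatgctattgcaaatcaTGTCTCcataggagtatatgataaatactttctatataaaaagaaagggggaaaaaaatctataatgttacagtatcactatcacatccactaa
EXPA10: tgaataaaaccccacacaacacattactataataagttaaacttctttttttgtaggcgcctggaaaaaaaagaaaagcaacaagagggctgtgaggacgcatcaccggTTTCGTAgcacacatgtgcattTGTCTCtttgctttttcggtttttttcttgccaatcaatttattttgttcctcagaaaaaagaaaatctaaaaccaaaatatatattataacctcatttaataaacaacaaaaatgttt
EXLA2: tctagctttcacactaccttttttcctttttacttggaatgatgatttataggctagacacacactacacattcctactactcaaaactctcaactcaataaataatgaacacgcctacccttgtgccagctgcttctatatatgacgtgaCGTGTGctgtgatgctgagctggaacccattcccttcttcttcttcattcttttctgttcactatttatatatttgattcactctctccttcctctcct
EXPA8: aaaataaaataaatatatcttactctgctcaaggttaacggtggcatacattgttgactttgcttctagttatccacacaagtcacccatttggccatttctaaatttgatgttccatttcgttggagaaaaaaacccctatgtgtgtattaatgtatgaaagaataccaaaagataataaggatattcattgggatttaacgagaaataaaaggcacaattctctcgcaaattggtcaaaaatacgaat
The matches lie at bases 149 to 144 and 94 to 89 before the start in EXPA5, at 119 to 114 (TGTCTC) and 141 to 135 (TTTCGTA) in EXPA10, and at 99 to 94 in EXLA2. TTNCGTA was also found in EXPA3 and EXLB1, and in EXPA9 and EXPB6, and TTNCGTG in EXPA2 and EXPA14. The TTNCGTA patterns were thus present in 2 of the 11 members called lower and in 2 of the 14 not called. A match is a match of letters only, in the stretch searched.

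The 3 expansin-like A genes all fell. EXLA1 (AT3G45970), at chr3:16896166-16897308 on the plus strand, was the most abundant member in no_Dex. It had 69.1, 54.4 and 55.0 FPKM in Dex and 86.8, 97.4 and 86.0 FPKM in no_Dex. Every Dex library lay below the no_Dex range. EXLA1 changed by -0.61 on the log2 scale (SE 0.10, adjusted p = 0.00569).

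EXLA2 (AT4G38400), whose mutants have been studied for altered resistance to the fungus Botrytis, lies at chr4:17978422-17979740 on the minus strand. It had 10.5, 9.20 and 10.8 FPKM in Dex and 17.99, 20.9 and 21.8 FPKM in no_Dex. The highest Dex library was far below the lowest no_Dex library. The fitted level was 2.01-fold lower in Dex, with a log2 fold change of -1.004 (SE 0.10, adjusted p = 0.000760). EXLA1 and EXLA2 were called in all 15 alternatives.

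EXLA3 (AT3G45960), at chr3:16892702-16894153 on the plus strand, was low in both groups, with 1.84, 2.28 and 2.58 FPKM in Dex and 3.31, 6.41 and 3.98 FPKM in no_Dex. The groups did not overlap, but no_Dex replicate 2 lay well above the other no_Dex libraries. EXLA3 changed by -1.04 on the log2 scale (SE 0.27, adjusted p = 0.0365), and -0.72 (adjusted p = 0.0901) without no_Dex replicate 2. The call was also lost without no_Dex replicate 3 or Dex replicate 2 or 3 (adjusted p between 0.0577 and 0.0944) and in limma-voom (0.0506). EXLA1 and EXLA3 are neighbours on the same strand, 2012 bases apart, with coding sequences identical at 86.0% of aligned positions. Less than 1% of the 50-base windows of either transcript (0.851% for EXLA1 and 0.650% for EXLA3) occurred at another locus. EXLA1 overlaps the end of the histone gene HTB9 on the opposite strand, and HTB9 was not called (log2 fold change 0.30, adjusted p = 0.0985).

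The single expansin-like B gene, EXLB1 (AT4G17030, chr4:9581562-9583290, minus strand), had 15.02, 13.0 and 12.8 FPKM in Dex and 15.5, 18.03 and 14.8 FPKM in no_Dex. Dex replicate 1 fell within the no_Dex range. Its log2 fold change was -0.26 (SE 0.10, adjusted p = 0.128), and -0.32 without Dex replicate 1, where it was called (adjusted p = 0.0345).

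Of the 6 beta-expansins 3 were tested and 1 fell. EXPB1 (AT2G20750, chr2:8940833-8942706, plus strand) had 7.09, 8.44 and 5.90 FPKM in Dex and 9.93, 11.6 and 11.7 FPKM in no_Dex. The groups did not overlap, and the log2 fold change was -0.65 (SE 0.13, adjusted p = 0.0160). Without no_Dex replicate 2 or 3 it was not called (adjusted p = 0.0736 and 0.0677).

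EXPB3 (AT4G28250), the most abundant beta-expansin, had 18.9, 27.5 and 37.7 FPKM in Dex and 32.4, 29.6 and 28.4 FPKM in no_Dex. The Dex libraries spread to both sides of the no_Dex range. Its log2 fold change was -0.11 (SE 0.21, adjusted p = 0.763), and 0.11 without Dex replicate 1. EXPB2 (AT1G65680) lay between 1.68 and 3.23 FPKM in Dex and between 1.71 and 2.10 FPKM in no_Dex and was not called (log2 fold change 0.35, adjusted p = 0.416).

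Several abundant alpha-expansins were not called. EXPA1 (AT1G69530), known from guard cells, where it takes part in stomatal movement, had 62.4, 60.9 and 59.8 FPKM in Dex and 56.4, 61.0 and 64.0 FPKM in no_Dex. The Dex libraries lay inside the no_Dex range. The log2 fold change was 0.00 (SE 0.06, adjusted p = 0.985), the change nearest to 0 in the family. The guard cell markers GC1, MYB60 and FAMA were all called lower, with log2 fold changes of -0.63, -0.37 and -0.30 (adjusted p = 0.00325, 0.0277 and 0.0309). The calls of MYB60 and FAMA were lost without any 1 of 5 libraries, all but Dex replicate 1. Both were also lost with the replicate block and offsets for length and GC content (adjusted p = 0.0515 and 0.0597), and FAMA in the DESeq2 Wald test (0.0742). GC1 was called in every alternative. The 3 summed to between 28.6 and 33.4 FPKM in Dex and between 42.3 and 44.9 FPKM in no_Dex, so that these groups were apart while those of EXPA1 were not.

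EXPA4 (AT2G39700) had 58.0, 77.8 and 87.4 FPKM in Dex and 64.0, 66.7 and 60.05 FPKM in no_Dex. Dex replicate 1 was the lowest of all 6 libraries and the other Dex libraries were the highest. For EXPA4 the log2 fold change was 0.22 (SE 0.14, adjusted p = 0.341), and 0.38 without Dex replicate 1, where EXPA4 was called higher (adjusted p = 0.00350).

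EXPA9 (AT5G02260) had 38.1, 36.6 and 35.8 FPKM in Dex and 29.3, 29.1 and 34.7 FPKM in no_Dex. Every Dex library lay above every no_Dex library, by a small margin over no_Dex replicate 3. For EXPA9 the log2 fold change was 0.24 (SE 0.07, adjusted p = 0.0656), and 0.32 without no_Dex replicate 3, where it was called higher (adjusted p = 0.0284). EXPA12 (AT3G15370) likewise had higher values in Dex, from 4.80 to 5.33 FPKM in Dex and from 2.52 to 4.31 FPKM in no_Dex. Its log2 fold change of 0.55 (SE 0.18, adjusted p = 0.0829) was the largest positive one of the family and was called in no alternative.

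EXPA14 and EXPA17 are known from lateral roots, where the transcription factor LBD18 activates them. EXPA14 (AT5G56320) had 15.1, 12.04 and 13.4 FPKM in Dex and 15.3, 14.6 and 18.5 FPKM in no_Dex, with Dex replicate 1 inside the no_Dex range. The log2 fold change was -0.27 (SE 0.11, adjusted p = 0.144), and -0.35 without Dex replicate 1, where it was called (adjusted p = 0.0372). EXPA17 (AT4G01630) ranged from 6.41 to 9.90 FPKM in Dex and from 6.62 to 11.7 FPKM in no_Dex and was not called (log2 fold change -0.08, adjusted p = 0.860). LBD18 itself had 0.415, 0.432 and 0.374 FPKM in Dex and 0.614, 1.03 and 0.691 FPKM in no_Dex. Its groups did not overlap, but the log2 fold change of -0.94 was not called (adjusted p = 0.0553), except on counts of single reads (0.0465).

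EXPA16 (AT3G55500) had 1.56, 2.39 and 2.89 FPKM in Dex and 3.90, 3.08 and 3.67 FPKM in no_Dex. The groups were apart by a narrow gap. For EXPA16 the log2 fold change was -0.65 (SE 0.22, adjusted p = 0.0900), and the gene was called only without Dex replicate 3 (adjusted p = 0.0495). Its near relative EXPA4, with 80.2% of aligned coding positions identical, had a log2 fold change of the opposite sign (above). The remaining tested members EXPA13, EXPA15 and EXPA20 had log2 fold changes of -0.03, -0.18 and 0.24 and overlapping groups. EXPA20 (AT4G38210) shares 75.7% of its 100-base windows with AT4G38215, an antisense gene, so that unstranded reads there cannot be assigned to either strand.

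**Figure D4:**
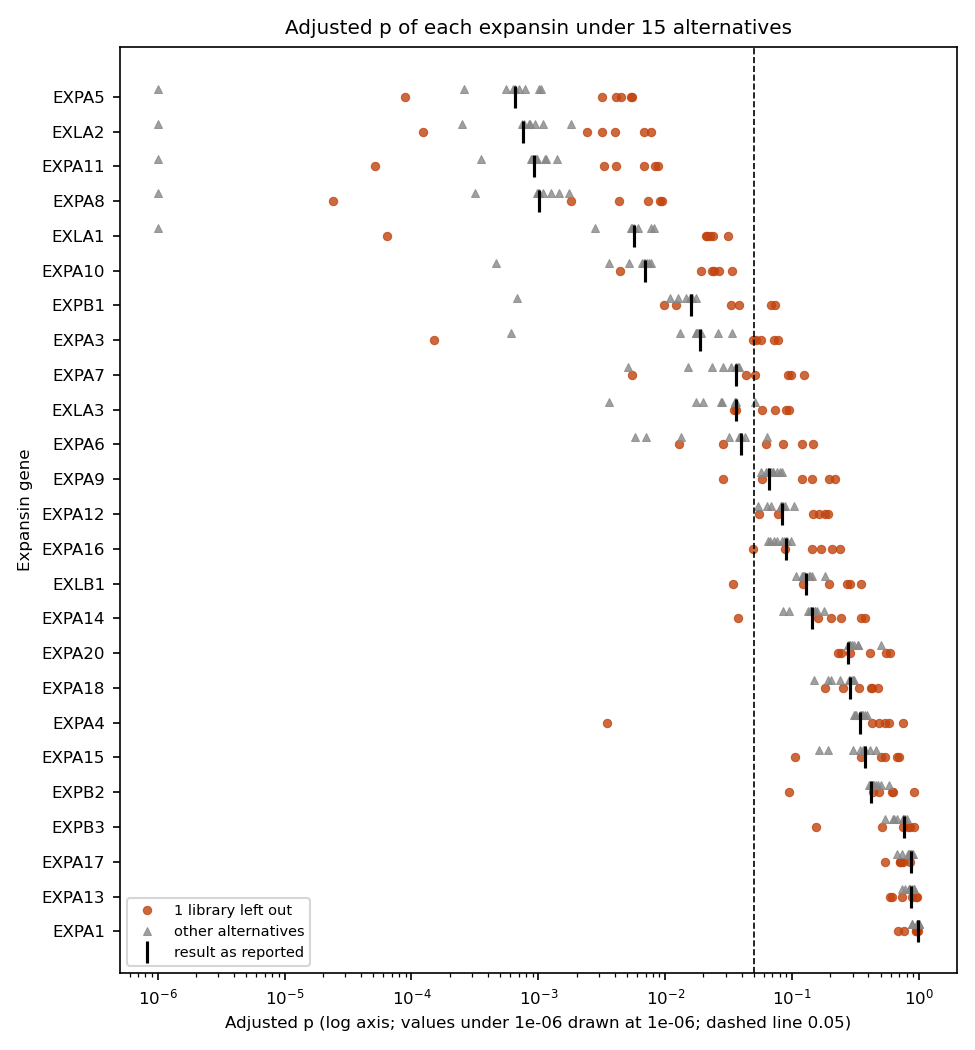
Adjusted p (log axis, values under 1e-06 drawn at 1e-06) of the 25 tested expansins in the result as reported (black tick), with 1 library left out (circles) and in 9 other alternatives (triangles), with a dashed line at 0.05. For 6 genes (EXPA5, EXLA2, EXPA11, EXPA8, EXLA1 and EXPA10) all marks lie left of the line, and the circles of EXPA3, EXPA6, EXPA7, EXPB1 and EXLA3 lie on both sides of it.

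The 11 members that were not tested had few or no reads. EXPA19, annotated as a transcribed pseudogene, EXPA22, EXPA23, EXPA24, EXPA26, EXPB4, EXPB5 and EXPB6 had 0 pairs in all 6 libraries. A count of 0 allows up to 3 pairs per library, which is 0.102 to 0.115 CPM (pairs scaled by library size only), for counting error only. EXPA2 (AT5G05290), which acts in seed germination, had 3, 4 and 1 pairs in Dex and 0, 3 and 3 pairs in no_Dex. EXPA21 (AT5G39260) had 12, 9 and 9 pairs in Dex and 14, 10 and 7 pairs in no_Dex, and it shares 24.3% of its 100-base windows with AT5G39250. EXPA25 (AT5G39300) had 1 pair, in Dex replicate 1. These values show no difference that could be detected at this depth.

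EXPA21 to EXPA26 stand side by side on chromosome 5, and some are near copies of each other. EXPA23 and EXPA25 are identical at 97.1% of aligned coding positions, with a shared run of 219 bases, and EXPA22 and EXPA26 at 97.7%, with a shared run of 208 bases. The authors removed reads with equally good hits elsewhere, so reads lying wholly in such runs were not counted, and a 0 there is less complete than elsewhere. A stretch of 120 coding bases around the end of the longest run shows how little separates the copies, with the 1 differing base in capitals (chr5:15730872-15730991 in EXPA23 and chr5:15737586-15737705 in EXPA25, both on the minus strand and written 5′ to 3′ on that strand).
EXPA23: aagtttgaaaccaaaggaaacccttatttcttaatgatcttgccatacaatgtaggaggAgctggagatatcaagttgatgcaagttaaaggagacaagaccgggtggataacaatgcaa
EXPA25: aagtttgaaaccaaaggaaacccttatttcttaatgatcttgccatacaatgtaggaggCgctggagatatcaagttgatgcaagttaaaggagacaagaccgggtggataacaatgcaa
The other expansins, apart from EXPA20 and EXPA21, shared no 100-base window with another locus.

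Genes of 2 families linked to the pH of the wall, on which expansins depend, were counted in the same way. This list held 11 AHA proton pumps, which acidify the wall, and 9 PP2C.D phosphatases, a family of which some members switch the pumps off. Of the 20 genes 19 were tested, 3 fell, 0 rose and 16 were not called in edgeR, with a median log2 fold change of -0.09. Of the 10 pumps tested 1 was called lower, with a median of -0.19, and of the 9 phosphatases 2 were, with a median of -0.02. The 3 were 15.8% of those tested, and over all tested genes 8.4% were called lower and 5.99% higher. This list too was chosen with earlier results known. At an unadjusted p under 0.05, 1 was higher and 4 lower, and DESeq2 and limma-voom each called 0 higher and 3 lower. AHA8 was called lower as a further gene with the replicate block (adjusted p = 0.0475). PP2C.D3, at 0.11 and not called in the main fit, was called higher with length and GC offsets, with or without the block. Without Dex replicate 1, AHA8 was called lower (-0.40, adjusted p = 0.00792) and AHA4 higher (0.45, 0.0158). AHA3, a pump known from the phloem and pollen, had 37.1, 29.5 and 31.7 FPKM in Dex and 47.9, 49.1 and 43.9 FPKM in no_Dex (log2 fold change -0.53, SE 0.09, adjusted p = 0.00673). The main pumps AHA1 and AHA2 were not called, at log2 fold changes of -0.06 and -0.09. PP2C.D1 had 34.0, 39.6 and 39.1 FPKM in Dex and 63.1, 57.5 and 63.6 FPKM in no_Dex (log2 fold change -0.72, SE 0.08, adjusted p = 0.00116). The groups were apart in AHA3 and PP2C.D1, and both calls held in every alternative. PP2C.D9 changed by -0.27 (adjusted p = 0.0353), a call lost without any 1 library except Dex replicate 1 (adjusted p up to 0.128). The phloem marker SUC2 was also lower, by -0.25 (SE 0.06, adjusted p = 0.0365, lost without any 1 library except Dex replicate 1 and with length and GC offsets, block or not), and its part in the change of AHA3 was not tested.

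Of 10 transcription factors known to act upstream of expansin genes, 3 fell, 1 rose and 6 were not called, with a median log2 fold change of -0.17. These calls were 30% lower and 10% higher, against 8.4% and 5.99% of all tested genes, in a list chosen with earlier results known. BZR1 and BES1 are the paired transcription factors of brassinosteroid signalling. BZR1 had 27.9, 28.4 and 28.1 FPKM in Dex and 25.6, 21.98 and 22.2 FPKM in no_Dex (log2 fold change 0.26, SE 0.07, adjusted p = 0.0448). BES1 had 77.9, 67.5 and 69.5 FPKM in Dex and 102, 94.5 and 85.5 FPKM in no_Dex (log2 fold change -0.41, SE 0.08, adjusted p = 0.0160). The groups of each gene were apart, with opposite signs in this close pair. BZR1 was not called when replicate 2 or 3 of either group was left out (adjusted p up to 0.162), nor on counts of single reads (0.0513). BES1 was not called without no_Dex replicate 1 or 2 or Dex replicate 2 (adjusted p up to 0.0678). PIF4, a growth-promoting factor of the light and temperature response, changed by -0.23 (SE 0.06, adjusted p = 0.0331, lost without any 1 library except Dex replicate 1). RSL4, described with the root hair genes, is the remaining member called lower. RSL4 and RHD6 are in both lists, so the call of RSL4 counts in both shares.

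**Figure D5:**
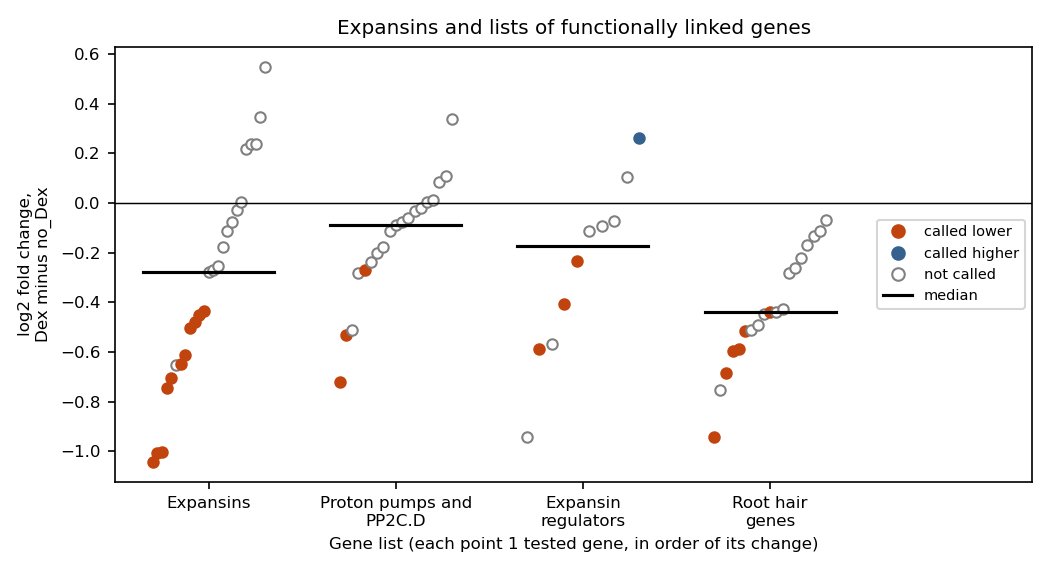
Log2 fold change, Dex minus no_Dex, of each tested gene among the expansins, the proton pumps and PP2C.D phosphatases, the regulators of expansins and the root hair genes; filled points were called and black lines are medians. The medians lie at -0.28, -0.09, -0.17 and -0.44 from left to right, and the only called gene above 0 is BZR1.

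Markers of other seedling tissues were among the called genes as well. The endodermal gene CASP2 was called lower, with a log2 fold change of -0.39 (adjusted p = 0.0467), and CASP1 was not (-0.31, adjusted p = 0.0677), although CASP1 was called with the replicate block (0.0146), with length and GC offsets (0.0257) and in the DESeq2 Wald test (0.0338), and without Dex replicate 2 (0.0268). The photosynthetic genes LHCB1.3 and CAB3 were called lower at -0.71 and -1.03 (adjusted p = 0.0199 and 0.0389). LHCA1 (-0.48, adjusted p = 0.0551) and RBCS1A (-0.01, adjusted p = 0.982) were not. LHCA1 was called with the replicate block (0.0404), with length and GC offsets (0.0157), in the DESeq2 Wald test (0.00416) and without Dex replicate 1, where it was at -0.32 (0.00739). The calls of CASP2, LHCB1.3 and CAB3 were each lost without any 1 no_Dex library, that of CASP2 also without Dex replicate 3 and that of CAB3 without Dex replicate 2 (adjusted p up to 0.167, 0.0890 and 0.128). The root markers IRT1 and PHT1.1 were not called, at 0.03 and 0.02, and neither was the trichome gene GL1 at -0.38. The 4 photosynthetic genes summed to between 6543 and 10233 FPKM in Dex, lowest in Dex replicate 1, and between 12125 and 13561 FPKM in no_Dex. The groups were apart in this sum, but those of RBCS1A alone overlapped, with means of 3022 FPKM in Dex and 3020 FPKM in no_Dex. The part of these tissues in the expansin levels was not tested.

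The genes next to the called expansins were counted as well. Of the 20 genes of other families that neighbour them on either side, 13 were tested, of which 1 fell (7.69%) and 0 rose in edgeR. This is near the share over all tested genes, of which 8.4% were called lower and 5.99% higher. At an unadjusted p under 0.05, 1 was higher and 3 lower, and DESeq2 and limma-voom each called 0 higher and 1 lower. The gene that fell is AS1, a leaf polarity gene 4042 bases from EXPA3, with a log2 fold change of -0.50 (adjusted p = 0.0212).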

How the data were processed

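Polyadenylated RNA of whole seedlings was sequenced as unstranded read pairs in 3 Dex and 3 no_Dex libraries, and samples were grouped by their titles. The submitters' processing notes name Bowtie2, with no version, and the TAIR10 build. Counts deposited by the authors are whole read pairs, and single reads, for each gene model, not normalized. Per the file headers, reads with an equally good second hit were removed (1.53% to 1.66% of pairs), and no insert size limit was set. A further column deposited by the authors, of the unit other, is the gene model's length in bases, per the file headers.

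Computed here were FPKM and the tests. edgeR 4.0.16 in R 4.3.3 removed weakly counted genes with filterByExpr (at least 10 pairs, 15 in total), used TMM scaling and ran the two-sided quasi-likelihood test on 21344 genes, with Benjamini-Hochberg adjustment and calls under 0.05. The SE was taken as the size of the log2 change over the root of its F statistic. The procedure was tested on simulated data. Depth was 26161582 to 29481253 pairs per library, with a median of 513 pairs per tested gene and library.

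Replicate numbers are shared between the groups. Deviations from group means correlated at 0.171, 0.119 and 0.125 between same-numbered libraries and at most at 0.0177 between others, so the numbers were taken, from the data alone, to pair the libraries. Deviations within a group cancel out, so these correlations are not independent of each other. The calls, SE and adjusted p given as the main result come from the edgeR fit without this pairing. The block fit changed no expansin call, but it moved adjusted p, for EXPA6 from 0.0394 to 0.00703.

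Alternatives were DESeq2 1.42.0 size factors and Wald test, no low-count filter, at least 1 CPM in all 6 libraries, limma-voom 3.58.1, the replicate block, single reads, length and GC offsets, the block with those offsets, and leaving out each library. Members and lists were chosen with earlier results of these data known. Library values are given for every called member, the 10 members highest by mean FPKM, and members whose call changed in an alternative; of each list, up to 4 called genes with the smallest p are named. Positions and sequences come from RefSeq TAIR10.1, in which 32835 of 33602 gene models matched a locus tag. Motifs were searched on both strands in the 250 bases before each gene start, with EXPA19 left out.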

Additional observations from a re-analysis of the deposited data

How the results depend on the processing

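Of the 11 expansins called lower, 6 were called in all 15 alternatives (54.5%), against 630 of the 1792 genes called lower overall (35.2%). The count of 11 lower and 0 higher was the same with the replicate block, which follows the pairing of the libraries, and the block ended no expansin call. Of the other genes named here as not called, the block called AHA8, COBL9, CASP1 and LHCA1 lower. The block gave 1604 genes higher and 2146 lower overall. Leaving out 1 library gave 6 to 13 expansins lower and 0 to 1 higher. The higher calls were EXPA9 without no_Dex replicate 3 and EXPA4 without Dex replicate 1. Over all genes it gave 519 to 2339 higher and 785 to 2726 lower, with fewest calls without no_Dex replicate 2 and most without Dex replicate 1. In the acid growth list, 0 to 1 genes were higher when a library was left out, and 1 with length and GC offsets with or without the block. Among the expansin regulators, leaving out a library gave 0 to 1 higher and 1 to 3 lower, and single reads gave 0 higher. The cause of these shifts was not tested.

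Signs turned only in members that were not called and lay near 0. EXPA1 was at -0.00111 with DESeq2 size factors, -0.00327 with at least 1 CPM in all libraries, -0.000109 in the DESeq2 Wald test, -0.0156 with offsets and -0.0148 with the block and offsets. With 1 library left out, EXPA1 ran from -0.0448 to 0.038, EXPA13 from -0.0926 to 0.0422, EXPA17 from -0.25 to 0.16 and EXPB3 from -0.40 to 0.11. Depth limits the members with few reads, and the unstranded reads limit EXPA20 and EXPA21, which share sequence with opposite-strand genes.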
